A study of Mus musculus with 32 samples.

Results

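Bone marrow cells of 4 Pparg+/- LysCre mice were grown either to immature dendritic cells (iDCs) or to IL-4-treated macrophages, and the 4 vehicle-treated iDC arrays were set against the 4 vehicle-treated macrophage arrays of the same animals. These 8 arrays were chosen from the 32 of the series by their labels alone (genotype, treatment and cell type), and each mouse number gave a pair. Mice 1 to 4 carried a null allele and an intact allele of Pparg, together with LysCre, a Cre recombinase driven by the lysozyme promoter in myeloid cells, on a C57Bl/6 background. Macrophages were differentiated for 9 days with 20 ng/ml M-CSF and 20 ng/ml IL-4, and iDCs for the same time with 20 ng/ml GM-CSF and 20 ng/ml IL-4. Both received DMSO:ethanol as vehicle. IL-4 and LysCre were thus common to both arms, and cell type and growth factor (M-CSF or GM-CSF) cannot be told apart in this design. A further 8 arrays, of vehicle-treated cells from 4 Pparg fl/- LysCre mice (mice 5 to 8), served as a repeat of the comparison in other animals. In these mice the remaining Pparg allele is loxP-flanked, for removal by the Cre in myeloid cells. Its removal in these macrophage and iDC cultures was not checked here. The rest of the series holds the same cultures with 1 μM of the PPARγ agonist rosiglitazone (RSG).

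M-CSF acts through the receptor tyrosine kinase CSF1R and carries marrow progenitors toward macrophages. GM-CSF acts through the GM-CSF receptor, JAK2 and STAT5, and with IL-4 it is the standard cytokine pair for raising dendritic cells from marrow. IL-4 signals through STAT6 in both cultures. Macrophages are tissue-resident phagocytes, whereas immature dendritic cells sample antigen and, once matured, present it to T cells on MHC molecules.

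Levels are given as log2 of the background-corrected chemiluminescence signal after quantile normalization over the 32 arrays, and differences as log2 signal in iDCs minus that in macrophages, with the standard error (SE) of the fit. A probe was detected where its signal-to-noise ratio was at least 3. On the 8 arrays 14546 to 15918 probes were detected, 44.1% to 48.2% of the 33012 noncontrol probes. All 4 mice had fewer detected probes in iDCs (14988 ± 380, SD, n = 4) than in macrophages (15521 ± 323, SD, n = 4; an exact two-sided sign-flip permutation test over the 4 mice gave the smallest p that 4 pairs allow, which lies above 0.05). Pearson's r across the tested probes was 0.968 to 0.980 between arrays of a cell type and 0.897 to 0.919 between the cell types, and no array stood apart. The number of arrays limits the precision. In RNA from whole cultures, fewer cells of a kind and less RNA per cell cannot be told apart.

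The 2 cultures differed widely. Of 16620 probes tested, 5086 were called, with an adjusted p below 0.05 and a change of 1.5-fold or more, 2375 higher and 2711 lower in iDCs, which is 30.6% of all tested probes (14.3% higher and 16.3% lower). The split is relative to the scaling. Median scaling of each array moved the median of all probes from -0.05 to -0.19 and gave 1972 higher and 3598 lower calls. At least 4-fold changes were seen for 568 probes called higher and 507 called lower, and at least 16-fold changes for 127 and 75. The median size of a called change was 1.17 on the log2 scale. The sign was the same in 4 of 4 mice for 4917 of the called probes (96.7%). Where a gene model carried several tested probes and at least 2 of them were called, the called probes went in a single direction for 173 of 181 models (95.6%). Among the 11366 probes detected on all 8 arrays 3464 were called (30.5%), close to the 30.6% of all tested probes. In addition, 179 tested probes were detected on 4 iDC arrays and on 0 macrophage arrays, and 205 on 4 macrophage arrays and on 0 iDC arrays.

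**Figure D1:**
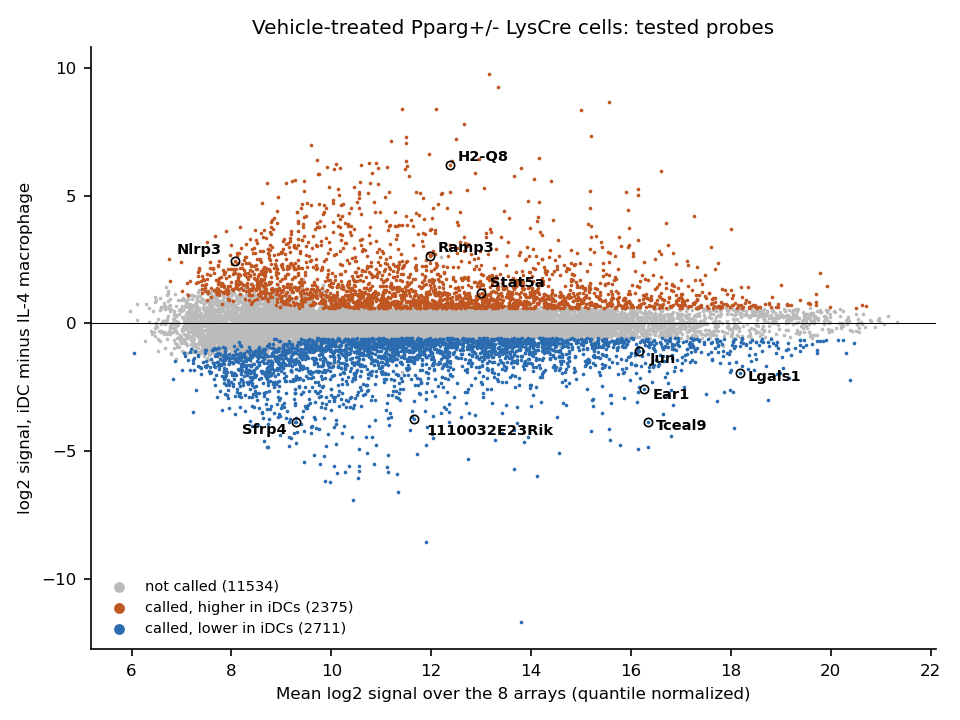
Each point is a tested probe, with its mean log2 signal over the 8 vehicle-treated Pparg+/- LysCre arrays on the x axis and the log2 signal in iDCs minus that in IL-4 macrophages on the y axis. The 2375 probes called higher in iDCs are orange, the 2711 called lower are blue and the others grey, and 10 named genes are ringed, among them H2-Q8 at 6.18 and Tceal9 at -3.86.

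Only a small part of the array could be named. A gene symbol was found for 325 of the 33012 probes, and 167 of these were tested. Of the 167, 60 were called, 28 higher and 32 lower in iDCs (35.9% called, against 30.6% of all tested probes), and all 60 changed in the same direction in 4 of 4 mice. The median change of the 167 was -0.10, against -0.05 over all tested probes. None of the 18 dendritic cell markers and none of the 21 macrophage markers listed for a check of the labels was among the named probes, and the same held for the lists of alternative activation (24 genes), MHC class II and antigen presentation (21 genes), complement and Fc receptors (16 genes), proliferation (31 genes) and T, B and NK cells (19 genes). The labelled cell types were therefore not checked against their defining markers, and Pparg itself was not analysed here.

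The largest rise of a named gene in iDCs was that of H2-Q8, a nonclassical MHC class I gene of the Qa-2 group. Its log2 signals in macrophages of mice 1 to 4 were 9.07, 9.31, 9.05 and 9.69, where 0 of 4 arrays detected it, and those in iDCs were 15.43, 15.43, 15.36 and 15.62. The iDC arrays lay close to each other and far above every macrophage array. Because the macrophage signal was not well above background, the change is given as a bound, the mean of the 4 bright arrays against the higher of the dim probe's own signal and the lowest detected signal on each dim array. Here and below, such a bound applies to the mean change and allows only for background, not for the spread between mice. H2-Q8 was at least 72.3-fold higher in iDCs (fitted difference 6.18, SE 0.47, adjusted p = 1.29e-09). H2-Q7, a closely related Qa-2 gene, was detected on all 8 arrays, with log2 signals of 18.29, 18.16, 18.45 and 18.25 in macrophages and 19.01, 19.07, 19.07 and 19.08 in iDCs. It rose by 0.77 (SE 0.11, adjusted p = 5.30e-06), and the groups did not overlap. The Q region holds near-identical copies, and which of them each probe measured was not tested. Both named H2- probes were called higher, against 14.3% of all tested probes.

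Ramp3 and Ramp1 code for receptor activity-modifying proteins, single-pass partners that turn the calcitonin receptor-like receptor into receptors for adrenomedullin or for calcitonin gene-related peptide. The log2 signals of Ramp3 were 11.04, 10.09, 10.88 and 10.60 in macrophages and 13.21, 13.33, 13.67 and 12.94 in iDCs, a 6.23-fold rise (2.64, SE 0.24, adjusted p = 2.11e-08). Ramp1 was detected on 4 iDC arrays (9.60, 9.86, 8.75 and 8.71) and on 0 macrophage arrays (7.41, 6.76, 6.88 and 8.23). Its mean was 3.75-fold higher in iDCs (1.91, SE 0.46, adjusted p = 0.00166), a lower bound with respect to background only. The differences in mice 1 to 4 were 2.20, 3.09, 1.86 and 0.48, so the rise in mouse 4 was well below that mean. Both partners were therefore higher in iDCs in each mouse, with groups that did not overlap. The Ramp1 difference was 2.65 in the mice of the first scan day and 1.17 in those of the second, where the adjusted p was 0.352.

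Nlrp3, the sensor of the inflammasome that activates caspase-1, was measured above background in iDCs (8.88, 9.58, 9.38 and 9.35) and on 0 of 4 macrophage arrays (7.30, 7.03, 7.95 and 5.11). With respect to background, its mean was at least 4.37-fold higher in iDCs (2.45, SE 0.45, 95% interval 1.51 to 3.39, adjusted p = 0.000134). However, fits to a single scan day, of 2 mice each, gave adjusted p = 0.0599 and 0.0615. Tlr7, an endosomal sensor of single-stranded RNA and the other member of the list of inflammasome and innate sensor genes with a named probe, was at 11.67 ± 0.12 in macrophages and 11.36 ± 0.13 in iDCs (SD, n = 4) and was not called (-0.31, 95% interval -0.69 to 0.07). Bcl2a1b, of the A1 group of antiapoptotic Bcl-2 relatives, had log2 signals of 19.31, 19.26, 18.96 and 19.06 in macrophages and 19.93, 20.23, 19.62 and 19.93 in iDCs, and rose by 0.78 (SE 0.14, adjusted p = 8.78e-05). The A1 genes are near-identical copies, and which of them the probe measured was not tested.

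Among the transcription factors, Stat5a, which relays the signal of the GM-CSF receptor, was at 12.48, 12.47, 12.27 and 12.48 in macrophages and at 13.53, 13.58, 13.55 and 13.71 in iDCs. This 2.25-fold rise (1.17, SE 0.12, adjusted p = 1.22e-07) was seen in every mouse, and the difference was 1.08 and 1.26 in the mice of the 2 scan days. Stat5b, its paralog, named here after its values were seen, differed by 0.18 and was not called. Cebpb, a bZIP factor of myeloid differentiation, had 2 tested probes, which both rose. The probe 640455 went from 14.60 ± 0.14 to 15.97 ± 0.17 (1.37, SE 0.22, adjusted p = 2.56e-05) and the probe 450590 from 19.35 ± 0.09 to 20.06 ± 0.13 (0.71, SE 0.14, adjusted p = 0.000348; SD, n = 4). The 2 probes agreed in direction and differed in size. Jun, the founding subunit of AP-1, went the other way, with log2 signals of 16.69, 16.55, 16.87 and 16.70 in macrophages and 15.42, 15.60, 15.78 and 15.70 in iDCs, a 2.11-fold fall (-1.08, SE 0.09, adjusted p = 9.56e-09). Foxn3, a forkhead repressor, fell by 0.86 (SE 0.09, adjusted p = 1.15e-07). Of the 5 zinc finger and BTB probes listed by symbol and tested, 3 were called higher (Zbtb18 by 1.11, Zfp146 by 1.00 and Zkscan17 by 0.83). In that list 0 were called lower and the other 2 were not called, against 14.3% of all tested probes called higher. The median of the 5 was 0.83, against -0.05 over all tested probes. Mkrn3, a zinc finger gene that the symbol list missed, was called lower (-1.05). Zbtb18 is a BTB-domain repressor that was at 14.74, 14.88, 14.67 and 14.98 in macrophages and 15.91, 15.83, 16.02 and 15.96 in iDCs (SE 0.19, adjusted p = 6.03e-05). Zfp146 was no longer called without mouse 2 (0.74, adjusted p = 0.140) or without mouse 3 (0.92, adjusted p = 0.0842). Gbx1 was higher by 0.78 (adjusted p = 0.0143) with overlapping groups, and without mouse 1 its difference was 0.42 (adjusted p = 0.216).

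Lrrk1, a Roco-family kinase, was at 12.06 ± 0.06 in macrophages and 13.24 ± 0.08 in iDCs (SD, n = 4; 1.19, SE 0.11, adjusted p = 1.63e-08). Mapk7, which codes for the mitogen-activated kinase ERK5, rose by 0.84 (SE 0.12, adjusted p = 5.45e-06), and Akap7, an anchor for protein kinase A, by 1.08 (SE 0.15, adjusted p = 5.11e-06). Paqr3, a Golgi-resident inhibitor of RAF kinase, was at 9.15, 9.96, 9.45 and 9.93 in macrophages and at 11.57, 11.40, 11.41 and 11.45 in iDCs (1.83, SE 0.32, adjusted p = 7.01e-05). Pdxp, the pyridoxal phosphatase also known as chronophin, rose by 1.53 (SE 0.22, adjusted p = 6.63e-06) and was detected on 2 macrophage and 4 iDC arrays. Sgms2, the plasma membrane sphingomyelin synthase, was at 12.30, 12.26, 12.18 and 12.44 in macrophages and at 13.78, 13.68, 13.66 and 14.04 in iDCs, a 2.82-fold rise (SE of the log2 difference 0.24, adjusted p = 2.63e-05). In each of these genes all iDC arrays lay above all macrophage arrays. Choosing called genes favours this, and the share over all tested probes was not counted. The noncoding or uncharacterized transcripts C130026I21Rik (1.26), C130050O18Rik (1.22), Mirhg1 (1.00) and 5830415G21Rik (0.85) were called higher as well, as were the ankyrin repeat gene Sowahc (0.65) and Nupr1l (0.91), which without mouse 1 was at 0.66 (adjusted p = 0.103). Among the ubiquitin ligases and tripartite motif genes listed by symbol, 5 probes were tested, of which Trim59 (0.71) and Trim34a (0.63) were called higher. The other 3, Rnf169, Trim41 and Rnf112, were not called, against 14.3% of all tested probes called higher. That list also missed Mkrn3, a RING finger ubiquitin ligase gene, which was called lower (-1.05). Without mouse 3 the Trim59 difference was 0.47 (adjusted p = 0.127), and under median scaling Trim59 (adjusted p = 0.0727), Trim34a (adjusted p = 0.0650) and Sowahc (adjusted p = 0.0781) did not pass.

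**Figure D2:**
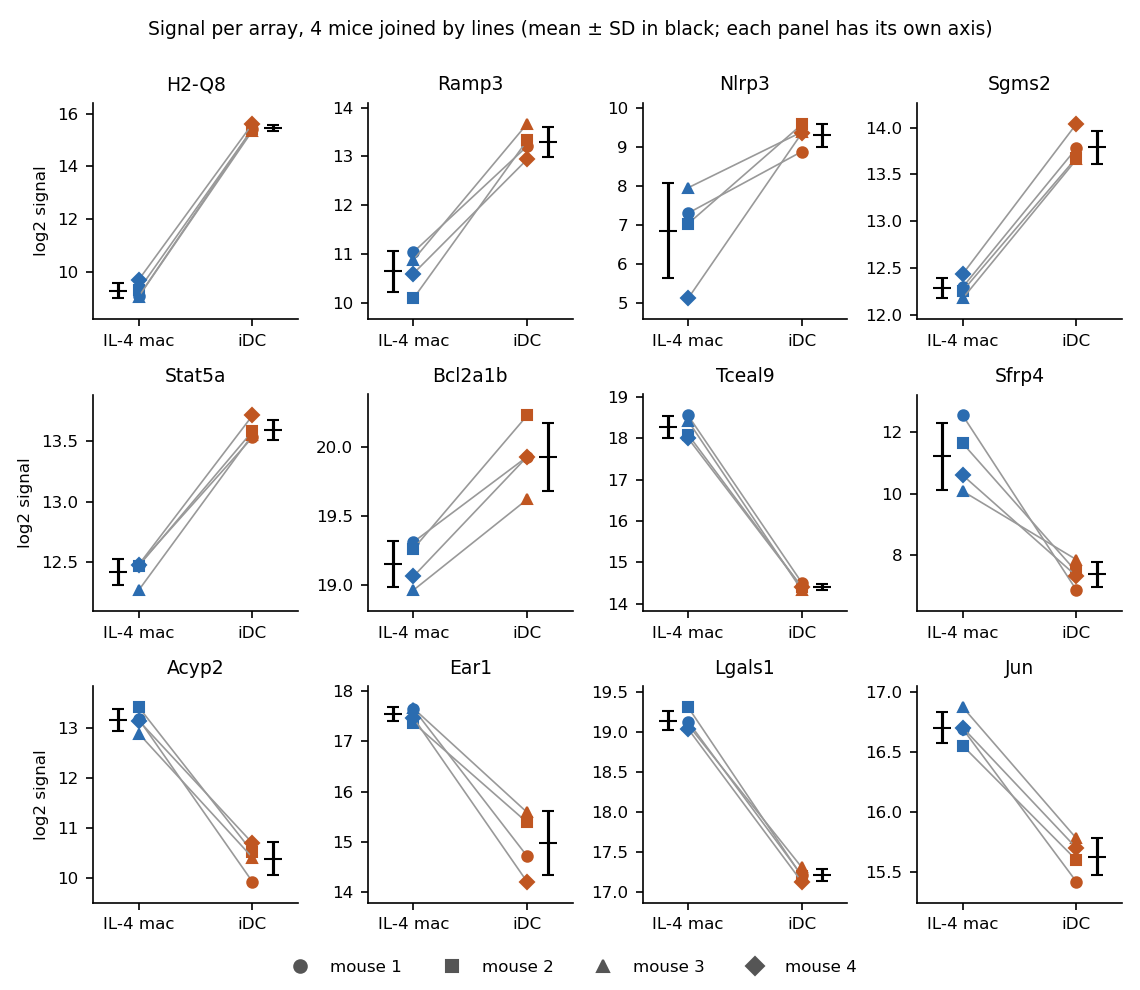
Log2 signal (y axis, scaled separately in each panel) of 12 named genes on the 4 vehicle-treated IL-4 macrophage arrays (blue) and the 4 iDC arrays (orange) of Pparg+/- LysCre mice, with lines joining the arrays of a mouse and black bars giving the mean ± SD. All 12 are called genes, a choice that favours groups without overlap, as seen here. The share of all tested probes without overlap was not counted. The scatter is widest where macrophages do not detect the probe (Nlrp3) and for Sfrp4.

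On the other side, Tceal9, a small nuclear protein related to transcription elongation factor A, had lower signal in iDCs of every mouse. Its log2 signals were 18.55, 18.09, 18.42 and 18.00 in macrophages and 14.51, 14.40, 14.33 and 14.40 in iDCs, a 14.5-fold difference (-3.86, SE 0.14, adjusted p = 4.50e-14). The uncharacterized transcript 1110032E23Rik was at 13.49, 13.58, 13.50 and 13.54 in macrophages and at 9.14, 10.03, 9.93 and 10.05 in iDCs, and fell by 3.74 (SE 0.33, adjusted p = 1.11e-08). Acyp2, an acylphosphatase of muscle and other tissues, fell 6.87-fold, from 13.18, 13.42, 12.89 and 13.15 to 9.91, 10.51, 10.40 and 10.69 (-2.78, SE 0.20, adjusted p = 8.42e-10). In all 3 genes the groups were far apart relative to the spread between mice.

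Sfrp4, a secreted antagonist of Wnt ligands, was detected on 4 macrophage arrays, at 12.55, 11.64, 10.08 and 10.60, and on 0 iDC arrays, at 6.85, 7.45, 7.85 and 7.31. With respect to background, its mean was at least 14.5-fold lower in iDCs (-3.85, SE 0.64, adjusted p = 4.81e-05). The macrophage cultures differed among themselves by more than 2 log2 units. Sfrp4 was the single named gene of the 20 stromal cell markers listed. Ntn1, the guidance cue netrin-1, was at 10.36, 10.24, 10.95 and 10.40 in macrophages and at 6.32, 8.49, 7.25 and 7.30 in iDCs, where 1 of 4 arrays detected it (fitted difference -3.15, SE 0.36, adjusted p = 3.46e-07). Epdr1, a lysosomal ependymin-related protein, fell by 2.11 (SE 0.43, adjusted p = 0.000356), with differences of -3.19 in the mice of the first scan day and -1.03 in those of the second. Heg1, a membrane protein of endothelial junctions, fell by 2.28 (SE 0.61, adjusted p = 0.00414) but by 1.60 without mouse 1 (adjusted p = 0.0667). Ntn1, Epdr1 and Heg1 were each detected on 4 macrophage arrays and on 1 of 4 iDC arrays, so their iDC signal was mostly not above background and the fitted sizes depend on that level.

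Lgals1, a galactoside-binding lectin abundant in macrophages, was at 19.13, 19.31, 19.09 and 19.04 in macrophages and at 17.21, 17.20, 17.31 and 17.13 in iDCs, a 3.81-fold fall (-1.93, SE 0.14, adjusted p = 8.76e-10). Lgals7, known best from stratified epithelium, was detected on 4 macrophage arrays and 1 iDC array and fell by 2.19 (SE 0.22, adjusted p = 7.84e-08). The iDC signal of Lgals7 was mostly not above background, so the fitted size depends on that level. Tnfsf13, which codes for APRIL, a TNF-family cytokine for B cells and plasma cells, was at 14.97, 14.50, 14.85 and 14.85 in macrophages and at 14.18, 14.09, 14.27 and 13.97 in iDCs (-0.67, SE 0.10, adjusted p = 9.27e-06). Ear1, an eosinophil-associated ribonuclease, had log2 signals of 17.65, 17.37, 17.66 and 17.47 in macrophages and of 14.72, 15.39, 15.59 and 14.21 in iDCs, a 5.90-fold fall (-2.56, SE 0.35, adjusted p = 3.97e-06). The macrophage arrays agreed closely, and the iDC arrays were spread over more than 1 log2 unit. Ear1 was the single named gene of the 30 neutrophil, eosinophil, mast cell and basophil markers listed.

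Crip1, a LIM-domain protein, fell by 1.92 (SE 0.24, adjusted p = 1.42e-06), Atox1, the copper chaperone of the cytosol, by 1.26 (SE 0.14, adjusted p = 1.62e-07), and the metallothionein Mt3 by 1.09 (SE 0.20, adjusted p = 0.000151). Hipk2, a nuclear kinase that phosphorylates p53, was at 17.27 ± 0.06 in macrophages and at 15.64 ± 0.18 in iDCs (SD, n = 4; -1.63, SE 0.09, adjusted p = 2.51e-11). The histone genes H2bc13 and H2bc18 fell by 1.58 (SE 0.20, adjusted p = 1.24e-06) and 0.94 (SE 0.13, adjusted p = 7.47e-06). Trmt61a, the catalytic part of a tRNA methyltransferase, fell by 1.37 (SE 0.19, adjusted p = 4.79e-06), and Rap2b, a small GTPase, by 0.94 (SE 0.11, adjusted p = 7.62e-07). Further falls were those of Paqr9 (at least 4.93-fold, detected on 0 iDC arrays), the protocadherin Pcdha3 (-2.19) and 2700081O15Rik (-1.93), each detected on 1 of 4 iDC arrays, Nt5dc3 (-1.86), Rtl6 (-1.44), Mkrn3 (-1.05), Ikbip (-0.68), Tmem251 (-0.66), Dhrs7b (-0.59) and Sf3b5 (-0.59). The fitted sizes for Pcdha3 and 2700081O15Rik depend on iDC signals mostly not above background, and Pcdha3 differed by only -0.15 in mouse 4. Fits to the second scan day alone did not call Pcdha3 (adjusted p = 0.245), 2700081O15Rik (adjusted p = 0.109) or Mkrn3 (adjusted p = 0.0531). Tmem251, Dhrs7b and Sf3b5 were close to the fold threshold, and each dropped under it without at least 1 mouse, with differences of -0.55 without mouse 1, -0.57 without mouse 2 or mouse 3, and -0.51 and -0.52 without mice 2 and 4. Wdfy1 (-0.90, adjusted p = 0.0407) rested on mouse 4, without which it was -0.36 (adjusted p = 0.257).

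**Figure D3:**
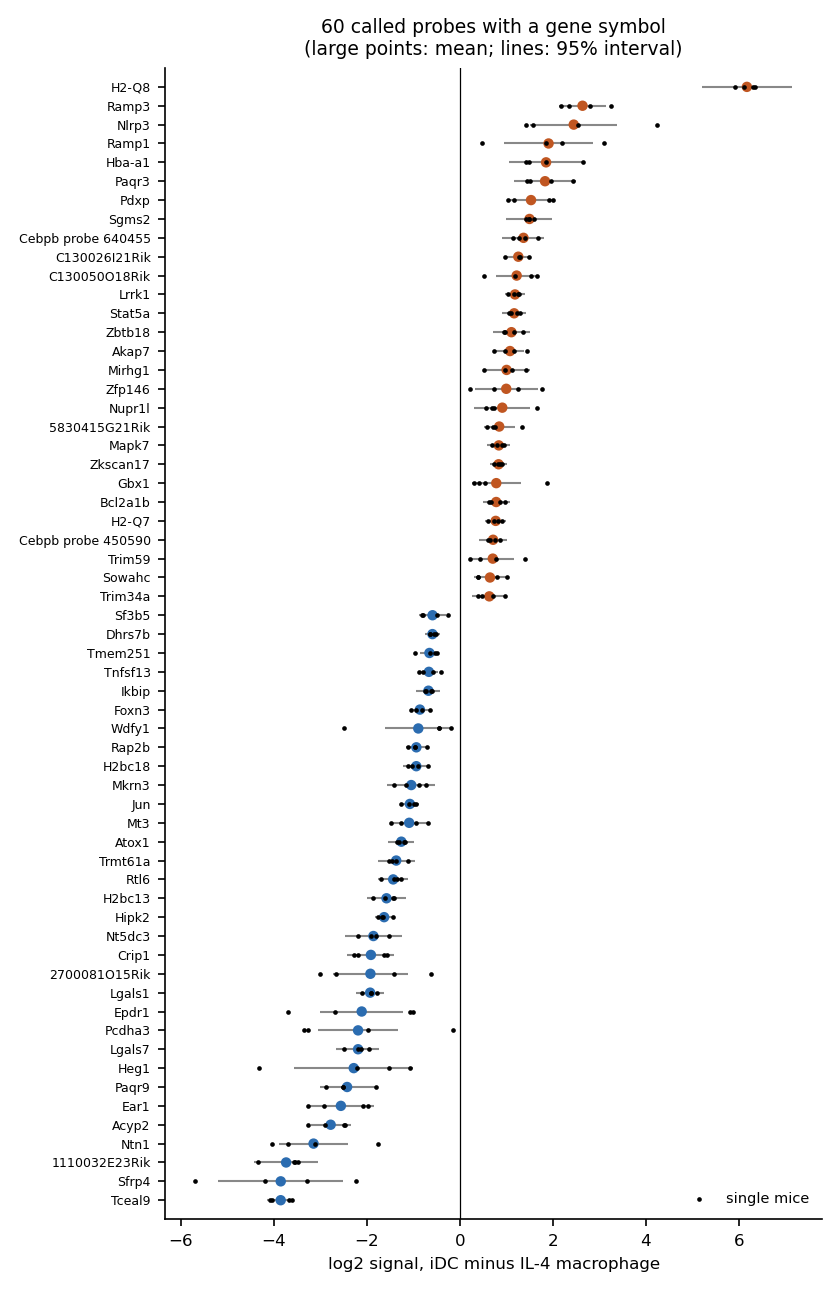
Difference in log2 signal (x axis, iDC minus IL-4 macrophage, vehicle-treated Pparg+/- LysCre cells) for the 60 called probes with a gene symbol. Large points give the mean over 4 mice (orange higher and blue lower in iDCs), lines the 95% interval of the limma fit and small black points the 4 mice, which lie on a single side of 0 for each probe.

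Markers of other cells could be read at few probes. Hba-a1, an alpha-globin gene of erythroid cells with a near-identical copy, was at 7.92, 8.28, 8.13 and 8.22 in macrophages (detected on 0 of 4 arrays) and at 9.35, 9.76, 9.98 and 10.88 in iDCs (detected on 3). With respect to background, its mean was at least 3.62-fold higher in iDCs (1.85, SE 0.39, adjusted p = 0.000482). However, the fit without pairing by mouse gave adjusted p = 0.0903. Eraf, the chaperone of alpha-globin and the other erythroid gene with a probe, was detected on 0 macrophage arrays and 1 iDC array, so that its signal was mostly not above background in either arm and no comparison is drawn from it. The part of erythroid RNA in the Hba-a1 difference was not tested. Of 7 olfactory and vomeronasal receptor probes tested, 0 were called, against 30.6% of all tested probes, with a median of -0.30. Lhx2, a LIM-homeobox factor, was detected on 0 of the 8 arrays. Of 4 named chemokine probes on the array 1 was tested, that of Ccl21b, which was at 9.09 ± 0.82 in macrophages and 9.83 ± 0.86 in iDCs (SD, n = 4) and was not called (adjusted p = 0.340).

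Some bright genes were close to level. Of the 167 named probes, 43 had a 95% interval within 1.5-fold either way. The brightest of them were Cd99, a leukocyte surface protein (-0.25, interval -0.54 to 0.04), Mprip, a myosin phosphatase partner (0.06, interval -0.10 to 0.21), Pfdn5, a prefoldin subunit (0.08, interval -0.20 to 0.35), Plin3, a lipid droplet coat protein (-0.23, interval -0.43 to -0.03), and Hsd17b10, a mitochondrial dehydrogenase (0.36, interval 0.19 to 0.53).

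Probes that carried gene model ids without a symbol changed as well. The probe of mCG114173 was at 19.73, 19.48, 19.81 and 19.50 in macrophages and at 9.70, 7.10, 8.06 and 6.91 in iDCs, where 1 of 4 arrays detected it (adjusted p = 5.09e-13). No fold is given for it, since the iDC signal was mostly not above background. The probe of mCG16889.2 was at least 324-fold lower in iDCs (-8.57, SE 0.43, adjusted p = 4.63e-12). Among the rises, mCG1032064.1 was at 8.90, 8.81, 7.30 and 8.11 in macrophages, where 2 of 4 arrays detected it, and at 18.07, 18.03, 18.13 and 17.87 in iDCs (fitted difference 9.74, SE 0.53, adjusted p = 1.31e-11). The size of this difference depends on a macrophage signal near background. The model mCG1309.2 had 2 tested probes, of which 461834 was at least 614-fold higher in iDCs (9.26, SE 0.38, adjusted p = 4.21e-13) and 867007 rose by 2.74 (SE 0.30, adjusted p = 2.33e-07).

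Promoter windows, from 250 bases before to 50 bases after a RefSeq start (GRCm38.p6), were searched on both strands for letters bound by factors that act downstream of the cytokines or were themselves measured, and for those of PU.1. These were TTCNNNGAA for STAT5, TTCNNNNGAA for STAT6, TGANTCA for AP-1, TTGCNNAA for C/EBP and GAGGAAGT for PU.1. Of 32851 windows in the mouse genome, 8.30%, 6.95%, 7.81%, 10.8% and 3.20% held them in that order. Windows were found for 23 of the 27 named genes called higher (36 windows) and for 24 of the 32 called lower (26 windows). The STAT5 letters were in 2 and 2 of these windows, the STAT6 letters in 1 and 1, the AP-1 letters in 4 and 3, the C/EBP letters in 3 and 2 and the PU.1 letters in 2 and 0, in genes called higher and lower in that order. The windows of Ramp3, Ramp1, Stat5a, Tceal9, Acyp2 and Jun held none of them. The matches are a description of letters, and no binding was measured. The AP-1 letters were looser than the usual TGACTCA or TGAGTCA. The matches in Bcl2a1b (TGAATCA) and H2bc13 (TGATTCA) fitted only the looser form, which the AP-1 counts and the share over all windows include. Shown here, 5′ to 3′ with matches in capitals, are windows of genes with higher (Nlrp3, Bcl2a1b, Sgms2) or lower (Ear1) signal in iDCs that hold a match, the STAT6 letters in the window of Nlrp3 at chr11:59542436-59542735 on the plus strand, the AP-1 and then the PU.1 letters in that of Bcl2a1b at chr9:89199023-89199322 on the plus strand, the STAT5 letters in 1 of 6 windows of Sgms2 at chr3:131488993-131489292 on the minus strand, and the C/EBP letters in that of Ear1 at chr14:43819590-43819889 on the minus strand.
Nlrp3: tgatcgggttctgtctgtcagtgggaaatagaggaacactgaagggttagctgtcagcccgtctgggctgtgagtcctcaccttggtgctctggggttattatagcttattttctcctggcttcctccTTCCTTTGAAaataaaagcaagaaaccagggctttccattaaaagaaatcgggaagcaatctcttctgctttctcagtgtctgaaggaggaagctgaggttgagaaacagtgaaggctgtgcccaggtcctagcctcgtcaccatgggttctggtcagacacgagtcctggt
Bcl2a1b: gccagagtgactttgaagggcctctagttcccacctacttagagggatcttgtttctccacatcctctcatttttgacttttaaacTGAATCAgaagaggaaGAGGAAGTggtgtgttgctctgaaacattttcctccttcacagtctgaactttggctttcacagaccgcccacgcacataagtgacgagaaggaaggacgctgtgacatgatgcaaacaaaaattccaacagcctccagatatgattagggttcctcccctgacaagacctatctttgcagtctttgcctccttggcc
Sgms2: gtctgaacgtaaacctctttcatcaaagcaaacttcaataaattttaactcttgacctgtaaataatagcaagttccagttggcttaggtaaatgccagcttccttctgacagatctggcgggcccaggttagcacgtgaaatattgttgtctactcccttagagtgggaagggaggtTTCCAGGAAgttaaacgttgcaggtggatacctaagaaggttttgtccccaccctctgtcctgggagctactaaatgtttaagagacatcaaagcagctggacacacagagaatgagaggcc
Ear1: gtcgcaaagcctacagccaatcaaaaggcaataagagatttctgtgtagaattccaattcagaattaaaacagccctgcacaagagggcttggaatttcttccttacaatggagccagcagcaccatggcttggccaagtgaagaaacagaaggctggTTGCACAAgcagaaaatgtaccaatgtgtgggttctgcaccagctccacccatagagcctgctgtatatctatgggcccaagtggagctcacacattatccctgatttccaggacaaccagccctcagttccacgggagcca

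The same comparison in Pparg fl/- LysCre mice shares no array with the 8 above, although the fit shares the estimate of spread. There, 4908 probes were called (29.5% of those tested). Of the 5086 calls in Pparg+/- LysCre cells, 3123 were called in the same direction in Pparg fl/- LysCre cells, 61.4% of the former and 63.6% of the latter, and 25 were called in the opposite direction. Of the 60 named calls, 39 were called in the same direction. Ramp3 rose by 3.00, Stat5a by 1.35 and Lrrk1 by 1.46 in Pparg fl/- LysCre iDCs, and Tceal9 fell by 3.26, Lgals1 by 1.69 and Jun by 1.39. Ntn1 fell by a fitted 2.42, with 2 of 4 Pparg fl/- LysCre iDC arrays detecting it. Among the named calls without a call in Pparg fl/- LysCre cells were both Cebpb probes, 640455 (0.45, adjusted p = 0.102) and 450590 (0.33, adjusted p = 0.0716), and Mapk7 (0.28, adjusted p = 0.0615). In that order they rose by 1.24, 1.12 and 0.61 in mouse 5. In mice 6 to 8 they differed by 0.07 to 0.39, -0.19 to 0.25 and 0.01 to 0.24. The difference between the genotypes was itself tested, and 1455 probes passed (8.75% of those tested; 618 with a higher and 837 with a lower value in Pparg fl/- LysCre). This count depended on the fit. It was 888 without pairing by mouse, and leaving out single mice gave 2777 without mouse 5, which shared 1428 calls with the 1455, 545 without mouse 6 and at most 777 without any other mouse. Both Cebpb probes and Mapk7 did not pass this test with all mice. They passed it without mouse 5 (adjusted p = 0.000442 for 640455, 0.000716 for 450590 and 0.000724 for Mapk7).

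Among the 167 named probes, 16 passed the test of the genotype difference (9.58%), 14 of them called in Pparg+/- LysCre cells. Without mouse 5, 32 passed. In 12 of the 14 the fitted change was smaller in size in Pparg fl/- LysCre cells. Choosing probes called in Pparg+/- LysCre cells favours this direction. A smaller fitted change also held for 688 of the 856 probes, named or not, called in Pparg+/- LysCre cells that passed the genotype test (80.4%). The 12 include Hba-a1, which was called in the opposite direction in Pparg fl/- LysCre cells (-1.57, adjusted p = 0.00232). They also include H2-Q8, Sfrp4, Lgals7 and Paqr9. For these and Hba-a1 the sizes rest in part on signals mostly not above background, so the tally is of fitted values only. H2-Q8 was higher in iDCs of both genotypes, by at least 72.3-fold in Pparg+/- LysCre mice and by 3.34 on the log2 scale in Pparg fl/- LysCre mice, which gave 4.95, 3.46, 2.57 and 2.39. Its mean level in iDCs was 15.46 and 15.73 in the 2 genotypes, and that in macrophages 9.28 (detected on 0 of 4 arrays) and 12.39 (detected on 3). The genotype difference passed the test (adjusted p = 0.0123), and its fitted size of -2.83 rests on a Pparg+/- LysCre macrophage signal not well above background. Ear1 fell by 2.10 in mouse 5 and differed by -0.13, 0.04 and -0.02 in mice 6, 7 and 8, against a mean of -2.56 in Pparg+/- LysCre mice (difference 2.01, SE 0.49, adjusted p = 0.0149). In mice 6, 7 and 8 the iDC and macrophage levels of Ear1 were thus nearly equal, while mouse 5 lay within the range of Pparg+/- LysCre mice. Mouse 5 also lay with or near the Pparg+/- LysCre mice for Zbtb18, with 1.01 against -0.40, -0.17 and -0.15 in mice 6, 7 and 8, for Paqr3, with 1.21 against -0.32, -0.26 and -0.35, and for Crip1, with -1.83 against -0.46, -0.68 and -0.33. Of mice 5 to 8, mouse 5 was also nearest to the Pparg+/- LysCre mean for H2-Q8 (4.95), Hba-a1 (-0.02), Trim59 (1.06), Tlr7 (-0.41), Zfp146 (0.43) and 1110032E23Rik (-4.60). For Acyp2, Lgals7 and Dynlt1b it was neither nearest nor farthest. For Tceal9 (-2.94), Sfrp4 (2.90) and Paqr9 (-0.40) it was instead mouse 5 that lay farthest from the Pparg+/- LysCre mice. The Sfrp4 and Paqr9 signals in Pparg fl/- LysCre mice were mostly not above background.

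The single-gene calls of the genotype difference were less firm than the cell type effect. The fit without pairing by mouse ended 13 of the 16, with adjusted p of 0.0510 to 0.176 (the calls of Paqr3, Zbtb18 and Sfrp4 passed), and leaving out any mouse other than mouse 5 ended 8 to 12. Sfrp4, at least 14.5-fold lower in Pparg+/- LysCre iDCs, had differences of 2.90, -2.09, -1.66 and 0.88 in mice 5 to 8 (genotype difference 3.86, SE 0.91, adjusted p = 0.0127). Without mouse 5 the genotype difference was 2.90 (adjusted p = 0.0227). In Pparg fl/- LysCre mice Sfrp4 was detected on 1 of 4 macrophage arrays and on 0 iDC arrays, with mean levels of 7.74 and 7.75, so the differences within these mice are between values near background. Hba-a1 was higher in iDCs of each Pparg+/- LysCre mouse and lower in iDCs of mice 6, 7 and 8 (-2.05, -1.58 and -2.62; -0.02 in mouse 5; genotype difference -3.42, SE 0.55, adjusted p = 0.00206), with 0 of 4 Pparg+/- LysCre and 3 of 4 Pparg fl/- LysCre macrophage arrays detecting it. The rise of Trim59 was larger in Pparg fl/- LysCre iDCs (1.78 against 0.71, adjusted p = 0.0343). 1110032E23Rik also passed (adjusted p = 0.0346), with 1 of 4 Pparg fl/- LysCre iDC arrays detecting it (mean 7.91, mostly not above background) against 4 of 4 in Pparg+/- LysCre iDCs (mean 9.79), so the size of this genotype difference depends on a background level. The fall of Acyp2 was smaller (-1.51 against -2.78). Lgals7 and Paqr9 passed as well, but the sizes of their falls in the 2 genotypes are not compared, since Lgals7 was detected on 1 of 4 Pparg+/- LysCre iDC arrays and Paqr9 on 0 iDC arrays of either genotype. Of the 14 genes called in Pparg+/- LysCre cells, 12 also passed without mouse 5, all but Tceal9 (adjusted p = 0.0955) and Paqr9 (adjusted p = 0.0582). Tlr7 and Dynlt1b, a dynein light chain, passed the genotype test without a call in Pparg+/- LysCre cells. Dynlt1b missed only the fold threshold there (-0.51, adjusted p = 0.000205). Under median scaling it was called lower in Pparg+/- LysCre iDCs (-0.79, adjusted p = 8.61e-05). Genotype and scan day cannot be told apart in these differences, since each day held mice of a single genotype.

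**Figure D4:**
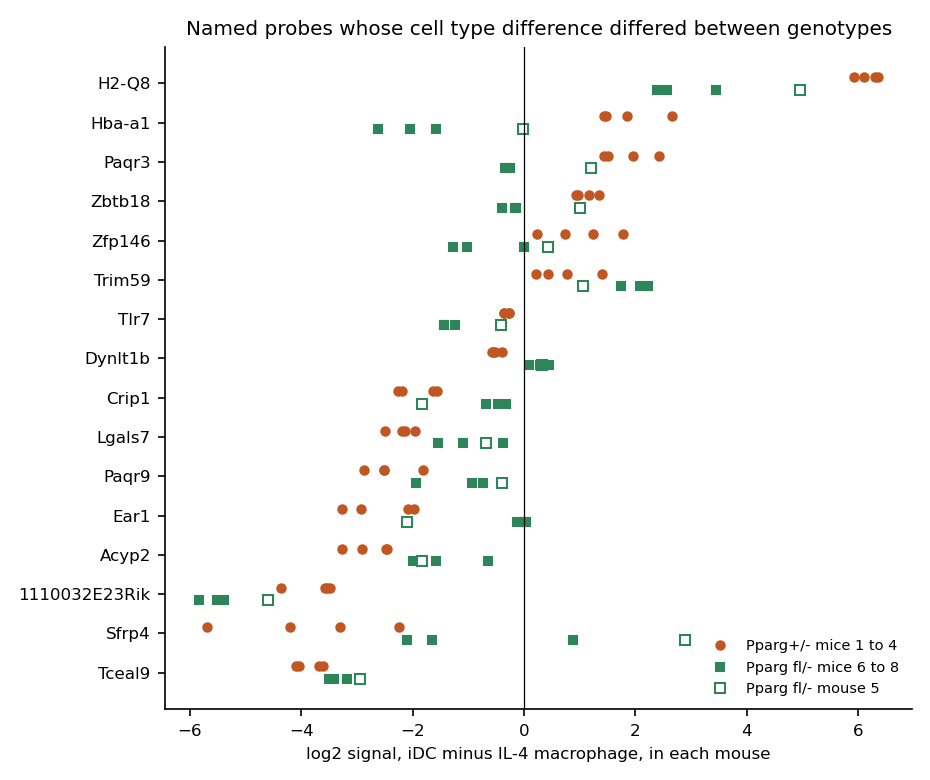
Difference in log2 signal between iDCs and IL-4 macrophages (x axis) in each vehicle-treated mouse for the 16 named probes that passed the test of the genotype difference, with Pparg+/- LysCre mice 1 to 4 in orange, Pparg fl/- LysCre mice 6 to 8 in filled green and mouse 5 in open green. For Ear1, Zbtb18, Paqr3 and Crip1 the open square lies near the orange points, for Tceal9, Sfrp4 and Paqr9 it lies farthest from them, and for Dynlt1b with the other green ones.

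With RSG in place of vehicle, the same Pparg+/- LysCre mice showed a different cell type effect at 852 probes (5.13% of those tested), among them 7 of the 60 named calls. In all 7 the fitted difference was smaller under RSG, a direction favoured by their choice on the vehicle-treated arrays, which both comparisons share. For Epdr1 and Sfrp4 the fitted values rest in part on signals mostly not above background. The adjusted p given here is that of the change from vehicle to RSG. The difference of Tceal9 was -3.86 with vehicle and -2.50 with RSG (adjusted p = 0.000310), and that of Acyp2 -2.78 and -1.33 (adjusted p = 0.00458). For Epdr1 the fitted differences were -2.11 and 0.11 (adjusted p = 0.0319). The size of this change is not measured, since 1 of 4 vehicle-treated and 2 of 4 RSG-treated iDC arrays detected Epdr1. Sfrp4 was at 10.08 to 12.55 in vehicle-treated macrophages, whereas with RSG 0 macrophage arrays and 1 iDC array detected it, at mean levels of 8.04 and 7.64. The change of its cell type difference from vehicle to RSG passed the test (adjusted p = 0.0276). Lhx2, which no vehicle-treated array of this genotype detected, was at a mean of 7.16 in RSG-treated macrophages (detected on 1 of 4 arrays) and of 11.81 in RSG-treated iDCs (detected on 4).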

How the data were processed

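Digoxigenin-labeled cRNA of 32 cultures (8 mice, 4 cultures each) was hybridised to single-color Applied Biosystems chemiluminescence arrays, which are not the Affymetrix arrays of the study's methods. The authors deposited for each array a background-corrected signal intensity on a linear scale, its standard deviation, an assay-normalized signal and the signal-to-noise score (S/N). The authors also deposited a table of linear ratios, used as an alternative. The array scales in that table followed each array's median signal to within 0.00225 on the log2 scale. Scanner software is not given in the sources used here. Where the S/N was 1 or less (35.8% to 43.9% of the probes of an array), the listed signal equalled its standard deviation to within 0.006 signal units (99.8% of such probes on the array with the fewest), so it is a noise level.

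Signals were log2 transformed and quantile normalized over the 32 arrays. Control spots were left out, and 16620 probes with S/N of at least 3 on 3 of the 4 arrays of some group were tested. limma 3.58.1 in R 4.3.3 was fitted to all arrays, with a mean per group and the mouse as a block. Probes were called when the p-value adjusted by Benjamini-Hochberg was below 0.05 and the change reached 1.5-fold. Arrays of the same number come from the same animal; deviations from the group means correlated at 0.0823 to 0.460 within a mouse (median 0.112, against -0.0654 between mice). The labels number separate mice. Each scan day held 2 mice and both cell types, so the block also absorbs the day. The fit was tested on simulated data.

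Symbols came from a RefSeq table of GRCm38.p6 (311 probes by accession, 6 by synonym) and the supplementary tables (8 probes). Genes named were up to 4 per gene list, the 15 calls with a symbol that rose most and the 15 that fell most (same sign in 4 mice), the 5 brightest steady probes, 2 rises and 2 falls without a symbol, and probes differing between genotypes; the remaining named calls were added after their values were seen. Members and lists were chosen with earlier results of these data known. Alternatives were other scalings, filters, thresholds, sets of arrays, an offset, no block, the methods' t-test, single scan days and leaving out each mouse. Culture lasted 9 days by the labels.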

Additional observations from a re-analysis of the deposited data

Results flagged for a closer look

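Among 170 sets of 4 arrays (the named genes and probes in each cell type), 7 had an outlying array. By chance about 1 in 20 sets would. The gap to the nearest array was 0.953 of the range for Stat5a in macrophages (mouse 3, at 12.27), 0.884 for Wdfy1 in macrophages (mouse 3, at 8.14), 0.883 for Zfp60 in iDCs (mouse 4, at 10.75), 0.877 for Ikbip in iDCs (mouse 4, at 11.00), 0.864 for 1110032E23Rik in iDCs (mouse 1, at 9.14), 0.864 for mCG1309.2 probe 461834 in macrophages (mouse 4, at 8.21) and 0.850 for Pcdha3 in macrophages (mouse 4, at 8.74).

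The cell type difference of 16 named genes in vehicle-treated cells differed between genotypes by the interaction term. The value in Pparg fl/- LysCre minus that in Pparg+/- LysCre mice was 3.86 for Sfrp4, 2.01 for Ear1, 1.43 for Paqr9, 1.27 for Acyp2, 1.27 for Lgals7, 1.09 for Crip1, 1.07 for Trim59, 0.80 for Dynlt1b and 0.60 for Tceal9, and it was -3.42 for Hba-a1, -2.83 for H2-Q8, -1.76 for Paqr3, -1.59 for 1110032E23Rik, -1.46 for Zfp146, -1.04 for Zbtb18 and -0.82 for Tlr7. Tlr7 and Dynlt1b were not called in Pparg+/- LysCre cells. The sizes for Sfrp4, Paqr9, Lgals7, Hba-a1, H2-Q8 and 1110032E23Rik rest in part on signals that were mostly not above background.

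The cell type difference in Pparg+/- LysCre mice also differed between RSG and vehicle. RSG minus vehicle was 4.64 for Lhx2, which no vehicle-treated array of this genotype detected, 4.18 for mCG114173, 3.45 for Sfrp4, 2.22 for Epdr1, 1.45 for Acyp2, 1.36 for Tceal9, 0.76 for Rtl6, 0.66 for Tmem251 and -0.74 for Akap7. For Lhx2, mCG114173, Sfrp4 and Epdr1 these are fitted values that rest in part on signals mostly not above background, so their sizes are not measured. Without pairing by mouse, Akap7 (adjusted p = 0.522) and Rtl6 (adjusted p = 0.200) were not called.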

How the results depend on the processing

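The number of cell type calls kept within 1.5 times of 5086 in all settings but one, a 2-fold threshold, which gave 3072. Leaving out each of mice 1 to 5 gave 4751 to 5183 calls, and single scan days 4167 and 3836. The fit with no replicate block gave 4796. Under median scaling, the deposited ratios and the assay-normalized signal the share of higher calls went from 46.7% to 35.4%, 35.3% and 38.4%. The genotype difference moved more. Its 1455 calls became 888 with no replicate block, 805 under median scaling, 626 with no detection filter and 801 at a 2-fold threshold, and leaving out single mice gave 545 to 2777. A filter or threshold changes how many probes can pass, and what else causes these changes was not tested. For 85 named genes and probes, 1919 alternative values of the cell type effect left the call as it was in 1817 cases, ended it in 88 and added it in 14, and in 0 cases did a called change turn its sign. Of the 64 called, 43 kept the call in all settings other than the 2-fold threshold. Uncalled differences crossed 0 in 21 of 468 values. The fit with no replicate block ended the calls of Hba-a1, Trim59 and Wdfy1 (adjusted p = 0.0903, 0.0741 and 0.286), 13 of 16 named genotype differences and 2 of 9 named treatment differences. Signals near background limit what can be said of probes detected in a single cell type.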
